A study of Homo sapiens with 6 samples.

Results

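The proteasome genes described here are the 45 genes whose symbol, in the annotation table of the array platform, consists of PSM, a letter from A to G and a number, out of 18417 genes measured. They comprise 8 PSMA and 11 PSMB genes of the core particle, and 5 PSMC and 12 PSMD genes of the regulatory particle and its assembly. The others are 4 PSME activators, the inhibitor gene PSMF1 and 4 PSMG assembly factors. PSMC5, PSMD7 and PSMD13 were not among the 45 members, so the regulatory particle is not covered whole. Members were selected on their symbols, but the gene family was chosen with earlier results of these data known. The difference between the groups may have entered that choice, so the shift of the family is not an unselected observation. Where several probe sets were assigned to a gene alone, the one to use was chosen by its mean log2 signal across all 6 arrays. The highest was taken, and the difference between the groups chose no probe set. A total of 41 members had a single such probe set and 4 had more than 1. No filter on low values was used, so all 45 members were tested.

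The 6 samples are A549 cells, an established human lung adenocarcinoma line, carried as stable cells of 2 kinds: 3 samples of control cells and 3 of cells labelled H2AX knockdown. H2AX is the histone variant that is phosphorylated around DNA breaks. Both groups had been starved of serum overnight and then exposed for 48 h to VP-16 (etoposide), which holds topoisomerase II on cut DNA, so the data compare the groups under the drug and hold no untreated sample. The labels do not say how many stable lines stand behind a group or how the knockdown was made. The samples of a group are described as independent experiments of such cells, so the p-values measure the spread between experiments.

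The proteasome is the protease complex that degrades most proteins tagged with ubiquitin. Its barrel-shaped core (20S) is built from rings of alpha subunits (PSMA genes), which gate the entrance, and rings of beta subunits (PSMB genes), some of which carry the peptide-cutting sites. The 19S regulatory particle binds ubiquitin chains, removes them and unfolds the substrate. It has a ring of ATPases (PSMC genes) and a set of other subunits (most PSMD genes). PSME proteins are alternative caps, and PSMG proteins are chaperones that assemble the alpha ring and do not stay in the finished particle. The subunits are needed in fixed proportions, and the transcription factors NFE2L1 and NF-Y are known to act on many of their genes.

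H2AX itself did not read lower under the knockdown label. Its log2 signal was 5.11, 5.27 and 5.26 in control replicates 1, 2 and 3 and 5.28, 5.17 and 5.49 in the arrays labelled knockdown, a difference of 0.10 (95% interval −0.25 to 0.45; limma adjusted p = 0.823). A 2-sided exact permutation test gave p = 0.4, and 0.1 is its smallest possible value with 3 arrays a side. Every direction below is therefore that of the label, not of a measured loss of H2AX. All 8 epithelial markers looked at were measured, and KRT8 read 9.44 to 10.0, whereas EPCAM was dim (2.28 to 2.72). Differences between the groups were above 0 for these 2 markers (0.24 for KRT8 and 0.15 for EPCAM) and below 0 for the other 6, from −0.12 for CDH1 to −0.61 for ALDH1A1, the only one of the 8 with groups apart. The summed linear signal of the epithelial markers ran from 2018 to 2596 in the controls and from 1824 to 2441 in the knockdown-labelled arrays. Among immune markers, PTPRC stayed at or below 2.45 in every array and CD3E at or below 2.42. Others read higher: LYZ 2.58 to 3.45, ITGAM 3.10 to 3.73 and CD14 3.92 to 4.45. Of the fibroblast markers COL1A1 read 4.96 to 5.34. Differences of the 7 fibroblast markers were all above 0, from 0.04 for COL1A1 to 0.47 for LUM, with overlapping groups. The same sum for 7 fibroblast markers ran from 78.3 to 99.9 in the controls and from 93.1 to 110.6 in the knockdown-labelled arrays, and that of 6 immune markers from 466.8 to 629.8 and from 347.5 to 441.3. CD68, a lysosomal protein gene that epithelial cells also express, was bright in the immune list (8.23 to 9.19) and had groups apart downwards (difference −0.46). The part of these markers in the results was not tested. Precision is limited by having 3 arrays a group, and knockdown-labelled replicate 1 stood apart with the narrowest spread of values (SD 1.60, against 1.71 to 1.86 in the other arrays).

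Proteasome genes read lower as a group in the knockdown-labelled arrays, in small steps spread over almost all subunits. The log2 difference (knockdown-labelled minus control) was below 0 for 40 of the 45 members, or 88.9%, where 51.5% of all genes tested were below 0. Its median was −0.42, against −0.01 over all genes, and it ranged from −0.92 for PSMG2 to 0.47 for PSMA8. The 3 knockdown-labelled arrays all lay below the 3 controls for 18 of the 45 members (40%), where 9.82% of all genes did, and all lay above them for 1 member, where 7.17% did. Whether each cell held less of these RNAs or fewer cells held them cannot be told apart in RNA from whole cultures.

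No single member passed the threshold. With limma and Benjamini-Hochberg adjustment over all genes, 0 members were lower (background 0.0271%) and 0 were higher (background 0.00543%), and the smallest adjusted p was 0.192, for PSMA1. At an unadjusted p under 0.05 in limma, 18 members were lower (40%, against 8.38% of all genes) and 1 was higher (2.22%, against 3.78%). The size of this pattern changed with the processing: the median was −0.20 after quantile normalization and −0.17 after cyclic loess, against −0.03 and −0.02 over all genes. At an unadjusted p under 0.05, 14 members (31.1%) were lower after quantile normalization, where 5.58% of all genes were, and 10 members (22.2%) after cyclic loess, where 5.23% were. With array weights estimated by limma more genes were called over the whole array, 155 lower (0.842%) and 36 higher (0.195%) past the adjusted threshold, and 4 members (8.89%) were among the lower ones (PSMA1, PSMA3, PSMA4 and PSMB5). In the same setting 30 members (66.7%) had an unadjusted p under 0.05 downwards, against 12% of all genes. Without control replicate 2 the groups lay apart downwards for 32 members (71.1%), where 20.4% of all genes did. Leaving out an array can only add such cases, and control replicate 2 was the lowest control for 36 members, so this rise is no support for the pattern.

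**Figure D1:**
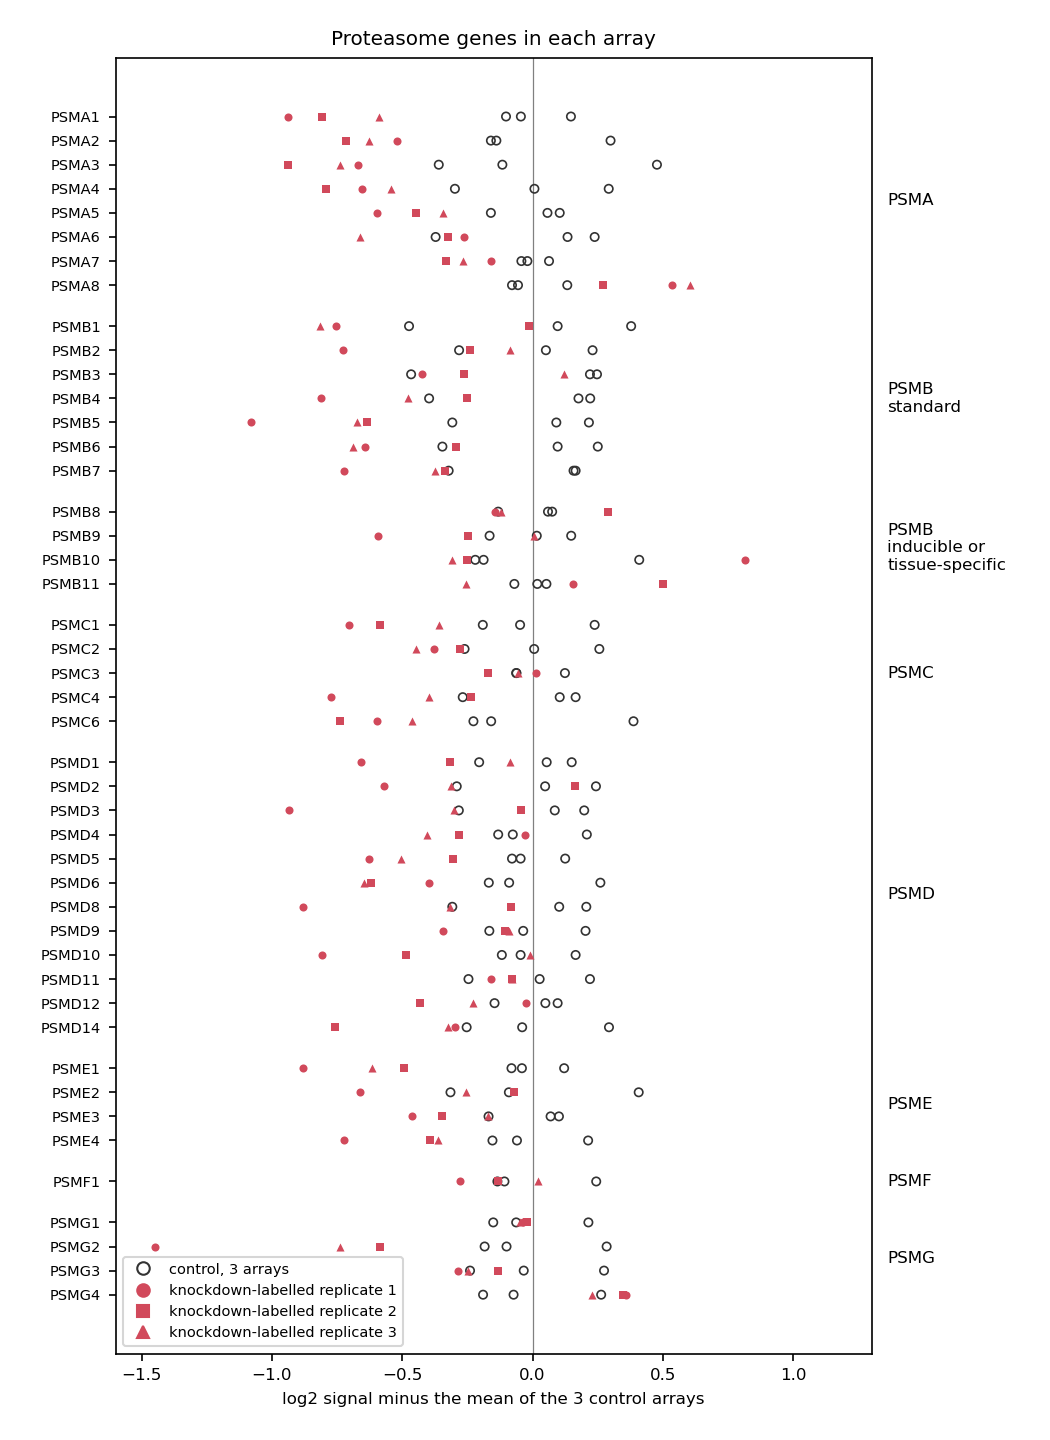
Log2 signal of each of the 45 proteasome genes in each of the 6 arrays, minus the mean of the 3 control arrays (x axis), with genes in rows by class; open circles are controls and filled symbols the knockdown-labelled arrays. For 18 genes all 3 filled symbols lie to the left of all 3 open circles, and for PSMA8 they lie to the right.

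The 40 members below 0 were read against the brightness of their probe sets, because bright genes in general read lower in the knockdown-labelled arrays. With all genes placed in 5 equal bins by mean signal, 30 members fell in the brightest bin, and all 30 were below 0, with a median of −0.42, while the bin as a whole had 85.3% below 0 and a median of −0.25. The groups lay apart downwards for 12 of these 30 members (40%) and for 23.2% of the genes of that bin, and 12 were lower at an unadjusted p under 0.05 in limma (40%, against 22.9% of the genes of the bin). In the next bin 7 members were all below 0 with a median of −0.53, where the genes of the bin had a median of −0.10, and 5 of the 7 lay apart (71.4%, against 13.3%). The third bin held 6 members with a median of −0.09, against −0.01, and 3 of them were below 0. Both members of the dimmest bin, PSMA8 and PSMB11, were above 0, as 81.7% of its genes were. The part of brightness in the members' differences was not tested.

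**Figure D2:**
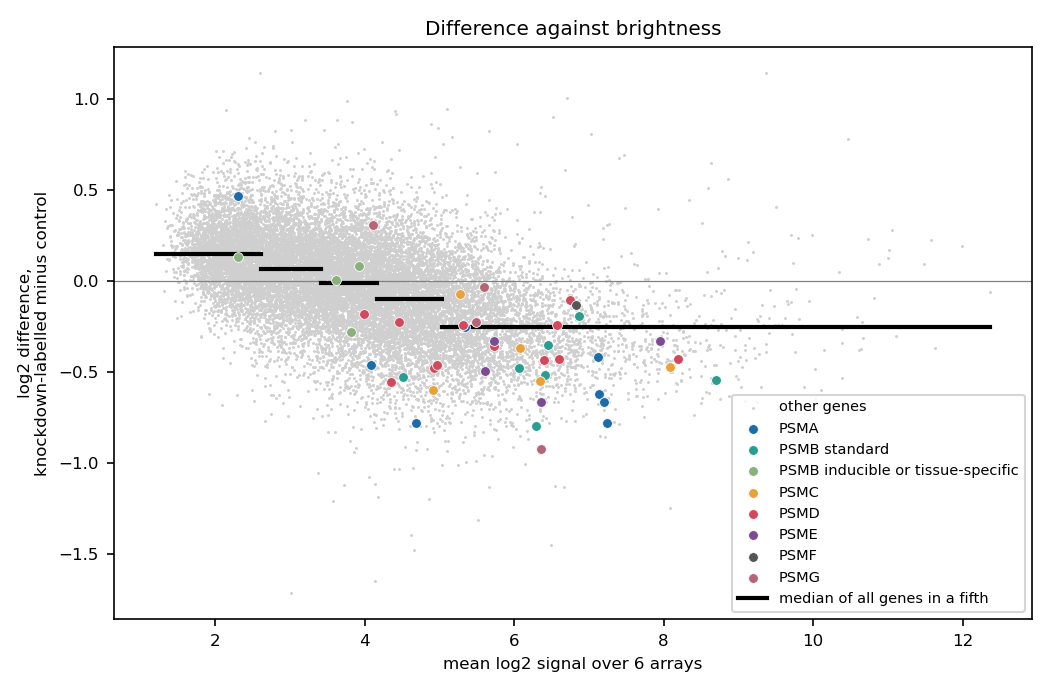
Log2 difference, knockdown-labelled minus control (y axis), against mean log2 signal over the 6 arrays (x axis) for all genes (grey) and the proteasome genes (coloured by class), with the median of all genes in each of 5 brightness bins as a black line. Of the 30 members in the brightest bin, whose line lies at −0.25, all are below 0.

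The array that stood apart read lowest, and the median of the members was below every control array's in all 3 knockdown-labelled arrays. Taken relative to the control mean, the median over the 45 members was −0.59 in the first knockdown-labelled array, −0.28 in the second and −0.32 in the third. The control replicates had 0.21, −0.18 and 0.05 on the same scale. The genes of the brightest bin had medians of −0.45, −0.15 and −0.13 and of 0.14, −0.15 and 0.01 in the same arrays. Control replicate 1 was the highest of all 6 arrays for 33 members, and control replicate 2 was the lowest control for 36. Knockdown-labelled replicate 1 lay below every control for 34 members, replicate 2 for 25 and replicate 3 for 31, where 36.9%, 27.9% and 28.5% of all genes did. Without knockdown-labelled replicate 1 the median of the members was −0.32 and 16 were lower at an unadjusted p under 0.05 in limma, where 5.33% of all genes were. Without control replicate 1 these values were −0.31, 12 and 3.34%.

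**Figure D3:**
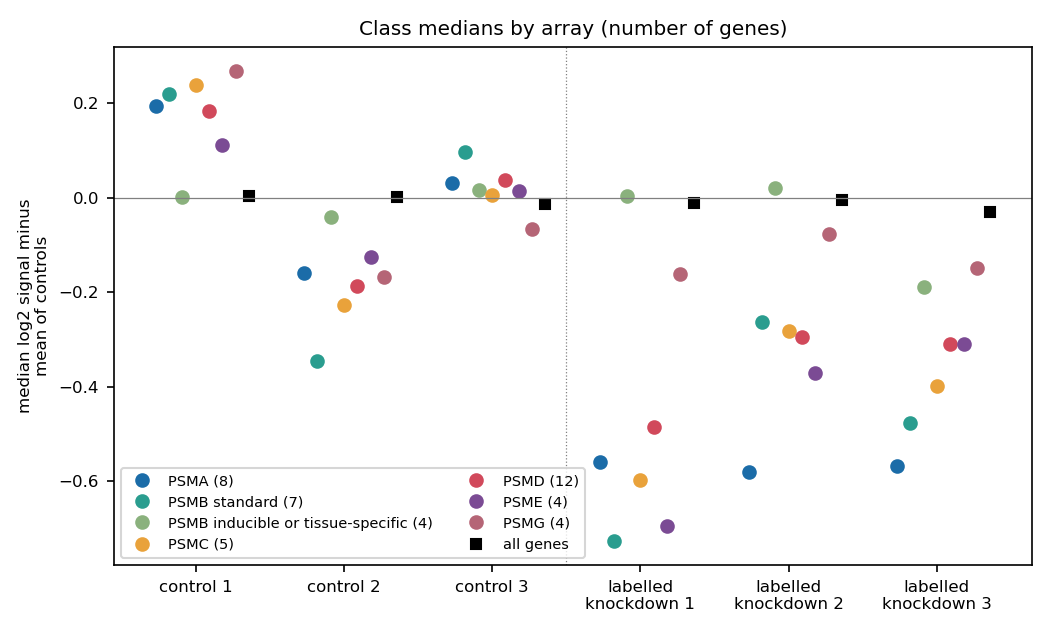
Median over the genes of a class of the log2 signal minus the mean of the 3 controls (y axis) in each of the 6 arrays (x axis), with one colour for each class and black squares for all genes. The PSMA median is near −0.57 in each knockdown-labelled array, while the other classes differ more between these arrays.

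Members that read lower together are often looked at through their promoters, so the RefSeq promoter windows (GRCh38.p14, 250 bases before to 50 after the start of the gene, 300 in all) were searched on both strands for letters known from proteasome and interferon-induced genes. A window was found for 39 of the 45 members. All windows here means the 27305 RefSeq windows, a larger set than the 18417 genes measured. The letters TGACNNNGC, the core of the antioxidant response element bound by NFE2L1 and NFE2L2, were in 13 of the 39 windows and in 13.6% of all windows. They were in 4 of the 16 windows of members whose groups lay apart downwards and in 9 of the 23 other member windows. The NF-Y letters CCAAT were in 17 of the 39 windows (35.7% of all windows), 8 of the 16 and 9 of the 23. The letters CCGGAAG of ETS factors were in 11 (10.7% of all), 6 of the 16 and 5 of the 23. Of the letters in interferon-response elements, TTCNNNGAA (bound by STAT factors) was in 5 windows (7.88% of all), 2 of the 16 and 3 of the 23, and GAAANNGAA (bound by IRF factors) in 7 (8.29% of all), 3 of the 16 and 4 of the 23. A match is a description of letters and not of a bound site.

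The 4 windows below show what such matches look like in members of either kind and do not stand for the counts above, in which TGACNNNGC was in 4 of 16 windows of members apart and 9 of 23 of the others (the difference was not tested). PSMG2 and PSME1 had TGACNNNGC and groups that lay apart, PSMB3 had the same letters and groups that overlapped, and PSMB10 had GAAANNGAA and groups that overlapped. Each reads 5′ to 3′ on the strand of the gene, with matches to TGACNNNGC and GAAANNGAA on either strand in capitals.
PSMG2, chr18:12658488-12658787, plus strand: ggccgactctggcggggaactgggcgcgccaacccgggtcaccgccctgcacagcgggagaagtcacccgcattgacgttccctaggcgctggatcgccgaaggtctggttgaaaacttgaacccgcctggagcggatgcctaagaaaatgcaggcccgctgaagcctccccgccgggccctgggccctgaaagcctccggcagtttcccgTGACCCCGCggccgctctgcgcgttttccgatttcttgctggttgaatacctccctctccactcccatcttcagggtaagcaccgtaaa
PSME1, chr14:24135944-24136243, plus strand: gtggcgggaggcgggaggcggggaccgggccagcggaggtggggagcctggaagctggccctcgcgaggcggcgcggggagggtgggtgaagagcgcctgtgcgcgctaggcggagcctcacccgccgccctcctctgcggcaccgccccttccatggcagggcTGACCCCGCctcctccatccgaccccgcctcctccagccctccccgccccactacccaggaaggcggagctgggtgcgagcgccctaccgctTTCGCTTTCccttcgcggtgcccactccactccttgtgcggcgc
PSMB3, chr17:38752491-38752790, plus strand: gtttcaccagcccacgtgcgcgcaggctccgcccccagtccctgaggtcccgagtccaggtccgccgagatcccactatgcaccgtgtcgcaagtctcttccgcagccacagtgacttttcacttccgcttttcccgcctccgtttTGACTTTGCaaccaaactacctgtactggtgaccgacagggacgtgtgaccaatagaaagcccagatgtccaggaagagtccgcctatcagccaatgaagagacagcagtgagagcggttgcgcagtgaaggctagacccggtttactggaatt
PSMB10, chr16:67936801-67937100, minus strand: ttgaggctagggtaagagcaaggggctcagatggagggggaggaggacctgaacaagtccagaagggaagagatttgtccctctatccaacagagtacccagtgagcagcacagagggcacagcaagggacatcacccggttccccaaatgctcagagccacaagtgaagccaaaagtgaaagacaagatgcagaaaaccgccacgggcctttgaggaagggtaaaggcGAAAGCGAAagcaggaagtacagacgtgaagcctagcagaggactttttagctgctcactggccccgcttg
The match in PSMG2 lies at −39 to −31 from the start of the gene and reads TGACCCCGC, and PSME1 has the same 9 letters at −86 to −78. PSME1 also has TTCGCTTTC, a match on the other strand, at 7 to 15 after its start. PSMB3 has TGACTTTGC at −104 to −96, and PSMB10 has GAAAGCGAA at −21 to −13.

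The median of the alpha subunits (PSMA1 to PSMA7, with the testis form PSMA8) was low to a like extent in each knockdown-labelled array. Differences were below 0 for 7 of the 8 (median −0.54), and 6 had groups apart downwards (75%, against 9.82% of all genes). At an unadjusted p under 0.05 in limma 5 were lower (62.5%, against 8.38%) and 1 was higher. The brightest bin, which held 5 of the 8, had 23.2% of its genes apart downwards and 22.9% lower by p. The class median, relative to the control mean, was −0.56, −0.58 and −0.57 in the arrays labelled knockdown. It was 0.19, −0.16 and 0.03 in the control arrays. It was −0.58 without knockdown-labelled replicate 1, −0.41 after quantile normalization and −0.36 after cyclic loess.

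PSMA1 (probe set 7946728), an alpha ring subunit, read 7.77, 7.52 and 7.58 in control replicates 1, 2 and 3 and 6.69, 6.82 and 7.04 in the arrays labelled knockdown, in the same order. All 3 knockdown-labelled arrays were below the lowest control, and the gap between the groups was wider than the range within either. The difference was −0.78 ± 0.17 (SE; 95% interval −1.14 to −0.42), so the signal was 58.3% of the control signal (limma adjusted p = 0.192). PSMA3 (probe set 7974603) read 5.55, 4.71 and 4.96 in the controls and 4.41, 4.14 and 4.33 in the knockdown-labelled arrays. Control replicate 1 was the high array here, and the groups did not overlap. Its difference was the same to 2 decimals, −0.78 ± 0.21 (SE; limma adjusted p = 0.273).

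PSMA4 (probe set 7985202) read 7.82, 7.23 and 7.54 in the controls and 6.88, 6.74 and 6.99 in the knockdown-labelled arrays, a difference of −0.66 ± 0.18 (SE; limma adjusted p = 0.273). PSMA2 (probe set 8139232) read 7.75, 7.29 and 7.31 against 6.93, 6.74 and 6.82, a difference of −0.62 ± 0.17 (SE; limma adjusted p = 0.276). For both genes the groups lay apart, and control replicate 1 was the highest array. PSMA5 (−0.46) and PSMA7 (−0.25) also had groups that did not overlap. PSMA6 (−0.42) had overlapping groups, since control replicate 2 lay among the knockdown-labelled arrays. PSMA8, the alpha subunit known from germ cells, was the only member with groups apart upwards: it read 1.99, 2.02 and 2.21 against 2.61, 2.34 and 2.68, with a percentile of mean signal of 12.2 among all genes (difference 0.47; limma adjusted p = 0.322).

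The 7 standard beta subunits were all below 0, with a median of −0.51, and 4 of them were lower at an unadjusted p under 0.05 in limma (57.1%, against 8.38% of all genes and 22.9% of the brightest bin, which held 6 of the 7). The groups lay apart for PSMB5 and PSMB7 (28.6%, against 9.82% and 23.2%) and overlapped for the other 5. Control replicate 2 read low across the class, with a class median of −0.35 against 0.22 and 0.10 in the other controls. Knockdown-labelled replicate 1 had the lowest class median, at −0.73, followed by replicate 3 at −0.48 and replicate 2 at −0.26. The class median moved to −0.28 after quantile normalization and −0.25 after cyclic loess.

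PSMB5 (probe set 7977879), which carries the chymotrypsin-like site and is the main target of bortezomib, read 6.90, 6.38 and 6.78 in control replicates 1, 2 and 3 and 5.61, 6.05 and 6.01 in the knockdown-labelled arrays. The groups lay apart, with knockdown-labelled replicate 1 the lowest. The difference was −0.80 ± 0.19 (SE; 95% interval −1.21 to −0.39), or 57.6% of the control signal (limma adjusted p = 0.224), and it was −0.65 without that array. PSMB6 (probe set 8003953), with the caspase-like site, read 9.22, 8.63 and 9.07 against 8.33, 8.68 and 8.28. Control replicate 2 lay below knockdown-labelled replicate 2, so the groups overlapped (difference −0.54 ± 0.19, SE; limma adjusted p = 0.327). PSMB7 (probe set 8164067), with the trypsin-like site, read 6.48, 5.99 and 6.47 against 5.59, 5.97 and 5.94. Its groups lay apart by a margin far smaller than the range within either (difference −0.48 ± 0.19, SE; limma adjusted p = 0.359). The 4 subunits without a cutting site had differences of −0.53 (PSMB1), −0.51 (PSMB4), −0.35 (PSMB2) and −0.19 (PSMB3), all with overlapping groups.

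The inducible and tissue-specific beta subunits had differences of either sign, from −0.28 for PSMB9 to 0.13 for PSMB11, with overlapping groups. These are PSMB8, PSMB9 and PSMB10, which replace the cutting subunits in the interferon-induced immunoproteasome, and PSMB11 of the thymus. The median of the 4 was 0.05 and 3 were above 0, but the median turned to −0.03 after quantile normalization, −0.02 after cyclic loess and −0.003 with array medians subtracted. At the level of single genes 0 were past an unadjusted p of 0.05 in limma, where 8.38% of all genes were lower and 3.78% higher. None lay in the 2 brightest bins, and in the third bin, which held PSMB8, PSMB9 and PSMB10, 5.32% of genes were lower by p. With 4 genes, a count of 0 is near these shares.

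PSMB8 (probe set 8125500), the inducible partner of PSMB5, read 3.69, 3.49 and 3.68 in the controls and 3.47, 3.91 and 3.50 in the knockdown-labelled arrays. Knockdown-labelled replicate 2 was the highest of the 6 and replicate 1 the lowest. The difference of 0.01 had bounds of −0.37 and 0.38 (95% interval; limma adjusted p = 0.988). PSMB9 (probe set 8118571), the partner of PSMB6 and a neighbour of PSMB8 in the class II region of the MHC, read 4.11, 3.79 and 3.97 against 3.37, 3.71 and 3.96, a difference of −0.28 (95% interval −0.68 to 0.12). PSMB10 (probe set 8002133), the partner of PSMB7, read 3.67, 4.30 and 3.70 against 4.70, 3.64 and 3.58. A single array in each group was high, and the difference of 0.08 (95% interval −0.51 to 0.68) became −0.28 without knockdown-labelled replicate 1. The 3 probe sets of PSMB8 agreed in every array to 4 significant digits, as did the 3 of PSMB9, so they add no separate reading.

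The 5 ATPase genes measured belong to the unfolding ring of the 19S particle, and PSMC5 was not among them. All 5 had differences below 0 (median −0.47), and 3 had groups apart downwards (60%, against 9.82% of all genes). The brightest bin, which held 4 of the 5, had 23.2% apart downwards. The median was −0.25 after quantile normalization and −0.22 after cyclic loess. PSMC6 (probe set 8150870) read 5.61, 4.99 and 5.06 in the controls and 4.62, 4.48 and 4.76 in the knockdown-labelled arrays, and the groups lay apart (difference −0.60 ± 0.19, SE; limma adjusted p = 0.290). PSMC1 (probe set 8080923) read 6.86, 6.43 and 6.57 against 5.91, 6.03 and 6.26, also apart (difference −0.55 ± 0.17, SE; limma adjusted p = 0.294). PSMC2 (probe set 8135250) read 6.52, 6.00 and 6.27 against 5.89, 5.99 and 5.82, and control replicate 2 was close to the nearest knockdown-labelled array (difference −0.37; limma adjusted p = 0.413). PSMC4 (−0.47) and PSMC3 (−0.07) had overlapping groups, and PSMC3 was above 0 after quantile normalization (0.08) and cyclic loess (0.11).

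For PSMC1 and PSMC6 a second probe set was at hand. The other probe set of PSMC1 (7976189) gave −0.54, close to the −0.55 of the one used. The other probe set of PSMC6 (7974380) was dimmer, with means of 3.91 and 3.58, and gave −0.32 in place of −0.60. In a limma fit over all probe sets its unadjusted p was 0.085, against 0.015 for the one used. RefSeq names 13 pseudogenes of PSMC1 and 3 of PSMC6, and at least 1 for 20 of the 45 members, so which transcripts such probe sets read is uncertain. PSMC1 and PSMC6 lie on chromosome 14, where the other members had probe set numbers from 7973369 to 7978123. The second probe sets of both genes fall in that range, and the ones used (8080923 and 8150870) do not. Whether the ones used read these genes or pseudogenes was not tested.

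The 12 PSMD genes hold other regulatory subunits and the base chaperones PSMD5, PSMD9 and PSMD10. All 12 were below 0, in a narrow range from −0.55 to −0.11 with a median of −0.39. The median was −0.22 without knockdown-labelled replicate 1, −0.19 after quantile normalization and −0.17 after cyclic loess. Of the 12, 3 (25%) had groups apart downwards, against 9.82% of all genes, and 3 were lower at an unadjusted p under 0.05 in limma, against 8.38%. The same genes, PSMD5, PSMD6 and PSMD14, made up both counts, and they lay in the bin next to the brightest. In that bin 13.3% of all genes had groups apart downwards and 11.3% were lower by p. The brightest bin, which held 7 of the 12, had 23.2% apart and 22.9% lower by p. PSMD6 (probe set 8088535), a lid subunit, read 4.89, 4.47 and 4.54 in the controls and 4.24, 4.01 and 3.99 in the knockdown-labelled arrays, with the groups apart (difference −0.55 ± 0.17, SE; limma adjusted p = 0.290). PSMD5 (probe set 8163795), a chaperone that helps to assemble the base and is not part of the finished particle, read 5.29, 5.12 and 5.09 against 4.54, 4.86 and 4.66, again apart (difference −0.48 ± 0.16, SE; limma adjusted p = 0.314). PSMD14 (probe set 8045946), the enzyme that cuts ubiquitin chains off substrates, read 5.50, 4.95 and 5.16 against 4.91, 4.45 and 4.88. Its groups lay apart by less than the spread within either (difference −0.46 ± 0.19, SE; limma adjusted p = 0.374).

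The ubiquitin-binding scaffold and receptor subunits overlapped between groups: PSMD1 was at −0.35, PSMD2 at −0.24 and PSMD4 at −0.24. PSMD2 read 6.86 in knockdown-labelled replicate 2, above 2 of the controls, and its difference turned to 0.03 after cyclic loess. Of the remaining lid subunits PSMD3 and PSMD8 had the same difference to 2 decimals (−0.43), PSMD12 had −0.23 and PSMD11 −0.11, and PSMD11 was above 0 after quantile normalization (0.13), after cyclic loess (0.17) and without control replicate 1 (0.004). The base chaperones PSMD10 and PSMD9 were at −0.44 and −0.18. All of these had overlapping groups.

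The 4 activator genes all had differences below 0 (median −0.41), and 3 had groups apart (75%, against 9.82% of all genes). All 4 lay in the brightest bin, where 85.3% of genes were below 0 and 23.2% had groups apart downwards. The median was −0.23 after quantile normalization and −0.19 after cyclic loess. PSME1 (probe set 7973564), whose promoter window is shown above, encodes a subunit of the interferon-inducible cap and read 6.81, 6.61 and 6.65 in the controls and 5.81, 6.20 and 6.07 in the knockdown-labelled arrays. The gap was wide, and the controls lay close together (difference −0.66 ± 0.17, SE; 95% interval −1.02 to −0.30; limma adjusted p = 0.233). PSME2 (probe set 7978123), its partner in the same ring, read 5.81, 5.58 and 6.31 against 5.24, 5.83 and 5.64. The groups overlapped in the middle of their ranges (difference −0.33, 95% interval −0.79 to 0.13), and RefSeq names 6 pseudogenes of PSME2.

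PSME4 (probe set 8052149), a nuclear cap known from histone turnover and DNA repair, read 6.07, 5.80 and 5.71 in the controls and 5.14, 5.47 and 5.50 in the knockdown-labelled arrays, which all lay below (difference −0.49 ± 0.17, SE; limma adjusted p = 0.326). PSME3 (probe set 8007397), the nuclear cap for ubiquitin-independent degradation, read 8.22, 7.95 and 8.19 against 7.65, 7.77 and 7.95. The groups met at their edges, with 7.948 as the lowest control and 7.945 as the highest knockdown-labelled array (difference −0.33; limma adjusted p = 0.441). PSMF1 (probe set 8060379), named as an inhibitor of the core, read 7.14, 6.76 and 6.79 against 6.62, 6.76 and 6.92. Its groups overlapped, and the difference of −0.13 (95% interval −0.50 to 0.24) turned to 0.11 after quantile normalization and 0.15 after cyclic loess.

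The 4 assembly factors differed among themselves, with an SD of their differences of 0.52. This SD was 0.41 among the PSMA genes, 0.14 to 0.21 in the other classes of more than 1 gene, 0.29 over all 45 members and 0.27 over all genes. PSMG2 (probe set 8020241), which pairs with PSMG1 to build the alpha ring, had the largest difference of all 45 members. It read 7.11, 6.64 and 6.73 in control replicates 1, 2 and 3 and 5.38, 6.24 and 6.09 in the knockdown-labelled arrays. All 3 were below the controls, and replicate 1 was lower than the other two by a wide margin. The difference was −0.92 ± 0.22 (SE; 95% interval −1.41 to −0.44), or 52.7% of the control signal (limma adjusted p = 0.224), and it was −0.66 without knockdown-labelled replicate 1. It was −0.71 after quantile normalization and −0.66 after cyclic loess.

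PSMG1 (probe set 8070330), the partner of PSMG2 in a stable dimer, did not read low beside it. It read 5.54, 5.46 and 5.82 in the controls and 5.57, 5.59 and 5.56 in the knockdown-labelled arrays, which lay inside the control range. The difference was −0.03, with a 95% interval of −0.38 to 0.31, and it was above 0 after quantile normalization (0.15), after cyclic loess (0.18) and without control replicate 3 (0.07). PSMG3 (probe set 8137798) read 5.87, 5.36 and 5.56 against 5.31, 5.46 and 5.35, with overlapping groups (difference −0.22, 95% interval −0.60 to 0.15). PSMG4 (probe set 8116655), its partner, was the only assembly factor with a difference above 0 in the deposited values: it read 4.22, 3.88 and 3.77 against 4.31, 4.30 and 4.18. Knockdown-labelled replicate 3 lay just below control replicate 1, so the groups overlapped (difference 0.31, 95% interval −0.05 to 0.68; limma adjusted p = 0.472). The class median of −0.13 turned to 0.05 after quantile normalization and 0.08 after cyclic loess.

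Other genes that work with the proteasome were taken from a list of 29, of which 24 were measured. They hold further subunits, shuttling factors, unfolding enzymes and ubiquitin itself. Differences below 0 were found for 23 of the 24 (median −0.28), and 5 had groups apart downwards (20.8%, against 9.82% of all genes). With limma 0 passed the adjusted threshold, and 4 genes had an unadjusted p under 0.05 downwards (16.7%, against 8.38% of all genes) and 0 upwards. The brightest bin held 17 of the 24, and there 85.3% of all genes were below 0 with a median of −0.25, 23.2% had groups apart downwards and 22.9% were lower by p, so the list's shares apart and lower by p were no larger than those of that bin.

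POMP, the maturation factor that acts with the PSMG proteins on the half-built core, read 7.14, 6.92 and 7.03 in the controls and 6.64, 6.35 and 6.69 in the knockdown-labelled arrays, and the groups lay apart (difference −0.47 ± 0.16, SE; limma adjusted p = 0.322). USP14, a ubiquitin-cutting enzyme that docks on the 19S base, read 5.81, 5.23 and 5.62 against 4.70, 4.90 and 5.28, with a slight overlap (difference −0.59 ± 0.20, SE; limma adjusted p = 0.314). AKIRIN2, a factor for import of proteasomes into the nucleus, was at −0.48 and the shuttle factor UBQLN1 at −0.38, both with groups apart. NFE2L1, the transcription factor of proteasome genes, read 6.98, 6.43 and 6.86 against 6.55, 6.68 and 6.50. Its groups overlapped, with a difference of −0.18 (95% interval −0.56 to 0.21). The ubiquitin gene UBB was at −0.11 and the ubiquitin receptor ADRM1 at −0.25, both with overlapping groups.

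**Figure D4:**
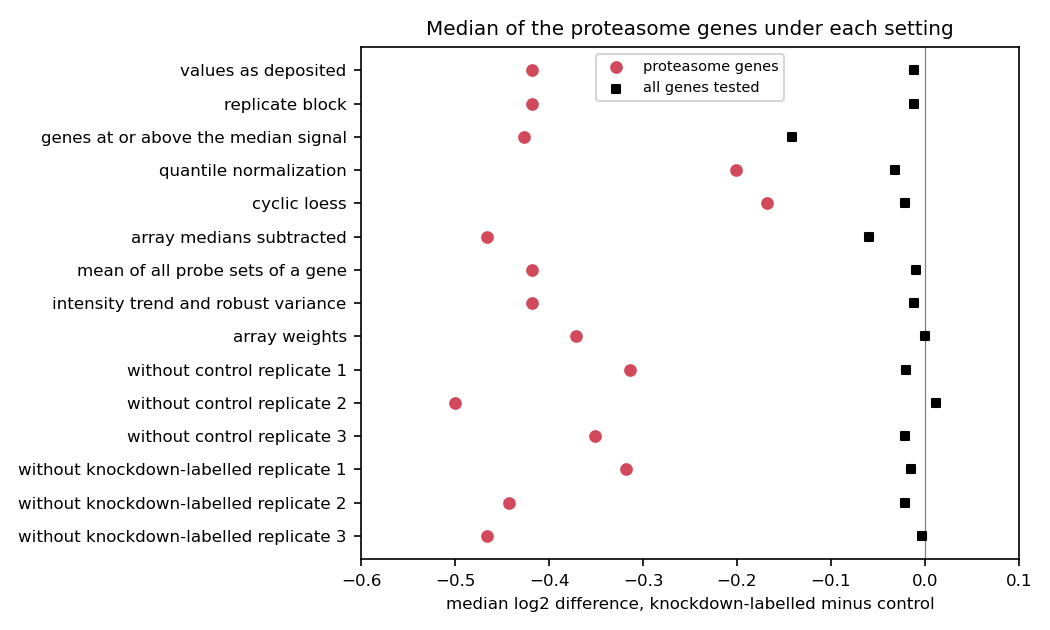
Median log2 difference, knockdown-labelled minus control (x axis), over the proteasome genes (circles) and over all genes tested (squares), for the deposited values and 14 other settings (rows). The median of the proteasome genes is −0.42 as deposited and lies between −0.50 and −0.17 elsewhere.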

How the data were processed

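RNA of 6 A549 samples (3 control, 3 labelled H2AX knockdown, grouped by title) was measured on Affymetrix arrays. The deposited values are log2 probe set signals that the authors computed by RMA, per the submitters' processing notes; its version is not given in the sources used here, and the log2 scale was taken from the values. RMA compresses differences of dim probe sets. Probe sets with several genes (1754 of 33297) or none (12083) in the platform's annotation were not named. For a gene with several probe sets the brightest was used, on ties the lowest ID, which gave 18417 genes.

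All genes were fitted with limma 3.58.1 (R 4.3.3; lmFit, eBayes; no covariate), with 2-sided p-values adjusted by Benjamini-Hochberg and a threshold of 0.05. The fit was tested on simulated data. The members and gene lists were chosen with earlier results of these data known. Values by array are given for up to 4 members per class and direction with groups apart (smallest p first), the cutting subunits and their inducible forms, PSMD14, PSMF1, all PSME and PSMG genes, and up to 4 genes of the pathway list per direction; PSMA8 falls under this rule. NFE2L1, UBB and ADRM1 were picked after their values were seen. RefSeq promoter windows of PSMA7, PSMB1, PSMB6, PSMB7, PSMD4 and PSMG3 were not used here. The 14 alternatives were the replicate number as a block, genes above the median signal, 2 further normalizations (quantile; cyclic loess with 5 iterations), subtracted array medians, averaged probe sets, a trended robust prior, array weights, and the omission of each array. Figures were drawn with matplotlib 3.10.9.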

Additional observations from a re-analysis of the deposited data

How the results depend on the processing

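No member passed the adjusted threshold in any of the 14 alternatives except array weights, where 4 were lower (smallest adjusted p 0.0295, for PSMA1). The replicate block gave 0 members past it, with 18 lower and 1 higher by unadjusted p and a median of −0.42. Same-numbered arrays did not deviate together (r = −0.31, −0.03 and 0.07 over genes), so the numbers were not taken as pairs. By unadjusted p, the count of lower members was 10 after cyclic loess, 30 with array weights and 12 to 26 with an array left out. The count of higher members was 0 with the signal filter or quantile normalization, 2 with array weights and 1 to 2 with an array left out. Groups lay apart upwards for 0 members with the filter, 2 after quantile normalization and 1 to 3 with an array left out, and downwards for 18 to 32 with an array left out. In the main fit 8.38% of all genes were lower and 3.78% higher by unadjusted p in limma. Groups lay apart downwards for 9.82% and upwards for 7.17% of all genes. These shares also changed with the setting, as given above for some settings, so the counts alone do not set the members apart. The median of all members was −0.20 after quantile normalization, −0.17 after cyclic loess, and −0.50 to −0.31 with an array left out. For the inducible and tissue-specific PSMB genes it was −0.10 with the filter, −0.034 after quantile normalization, −0.024 after cyclic loess, −0.0034 with array medians subtracted and −0.092 to 0.18 with an array left out. That of PSMG was 0.054 after quantile normalization and 0.078 after cyclic loess.

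Single members changed sign as follows, none of them past the threshold. After quantile normalization PSMB8 was at −0.030, PSMB11 at −0.038, PSMB3 at 0.045, PSMC3 at 0.079, PSMD11 at 0.13, PSMF1 at 0.11 and PSMG1 at 0.15. After cyclic loess PSMB8 was at −0.024, PSMB11 at −0.024, PSMB3 at 0.088, PSMC3 at 0.11, PSMD2 at 0.032, PSMD11 at 0.17, PSMF1 at 0.15 and PSMG1 at 0.18. With array medians subtracted PSMB8 was at −0.042. With an array left out PSMB8 ran from −0.13 to 0.084, PSMB10 from −0.28 to 0.29, PSMB11 from −0.051 to 0.33, PSMD11 from −0.23 to 0.0043 and PSMG1 from −0.11 to 0.073. Of the members' values under alternatives, 599 kept direction and side of the threshold, 4 gained the call and 24 turned direction, and the cause was not tested. Since no member was called, these counts do not show stability.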
